A study of Mus musculus with 6 samples.

Results

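Oxidative phosphorylation is carried out by protein complexes whose subunits are encoded in 2 genomes. The genes described here are the protein-coding genes of GENCODE M21 (mm10) whose symbols start with mt-Nd, mt-Co, mt-Cytb, mt-Atp, Nduf, Uqcr, Cox4, Cox5, Cox6, Cox7, Cox8 or Atp5, together with Sdha, Sdhb, Sdhc, Sdhd, Cyc1 and Cycs. This rule took 108 of the 48709 genes in the count table, 13 on the mitochondrial chromosome and 95 in the nucleus. The counts came from bulk RNA sequencing of polyadenylated RNA from cerebella of C57BL/6J mice aged 40 weeks. The first group held 3 samples from SCA7 140Q/5Q knock-in mice, which carry an Atxn7 allele coding for 140 glutamines beside one coding for 5 glutamines. Spinocerebellar ataxia type 7 (SCA7) is caused by expansion of that repeat. The second group held 3 wild-type samples. The changed allele is a knock-in, not a transgene, and the whole cerebellum was sampled without sorting, so each value is a sum over all of its cell types.

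In the inner membrane of the mitochondrion, complexes I and II pass electrons from NADH and succinate to ubiquinone, complex III passes them to cytochrome c, and complex IV passes them to oxygen. Complexes I, III and IV pump protons as they do so, and complex V uses the return of the protons to make ATP. The mitochondrial chromosome encodes the hydrophobic cores of complexes I, III, IV and V and is transcribed as long precursors from both strands, from which the messenger RNAs are released by removal of the tRNAs that lie between them. All subunits of complex II, and the remaining subunits of the others, come from nuclear genes that are translated in the cytosol and imported. Purkinje cells, the output neurons of the cerebellar cortex, fire spontaneously and are known for a high demand for ATP.

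Library totals lay between 34630391 and 39826478 counts in knock-in and between 39528292 and 49127673 in wild type. Over all 16699 genes tested, edgeR's quasi-likelihood test with Benjamini-Hochberg adjustment called 213 lower and 105 higher in knock-in at an adjusted p at or under 0.05, and the median log2 fold change was 0.01. With scaling by library size in place of TMM the split was 190 lower and 323 higher. Among cell type markers, 5 of 8 Purkinje cell genes and 3 of 6 Bergmann glia and astrocyte genes were lower, 0 of 5 microglial and 0 of 4 endothelial genes were called, and 4 of 8 brainstem markers, among them Chat and Fev, had too few counts to test. The mean log2 CPM of the brainstem markers was 2.69, -0.27 and 1.13 in knock-in, against -1.27, -0.21 and -2.36 in wild type, a wider range than that of any neuronal list; the 4 tested brainstem markers had a median log2 fold change of 3.13 with 0 called. Choroid plexus markers ranged from 0.25 to 4.55 in knock-in and from 3.81 to 5.35 in wild type. The third knock-in library stood apart from the other libraries for the nuclear genes described here, and the medians of the nuclear gene groups are also given without it. Levels are given as CPM, the count scaled to the size of the library after TMM adjustment, which is not corrected for the length of the gene.

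The 13 mitochondrially encoded messengers differed in how many reads were counted on them. Of these, 7 had at least 10000 counts in each library, namely mt-Nd1, mt-Nd2, mt-Nd4 and mt-Nd5 of complex I, mt-Cytb of complex III, mt-Co1 of complex IV and mt-Atp8 of complex V. The other 6 were mt-Nd3, mt-Nd4l, mt-Nd6, mt-Co2, mt-Co3 and mt-Atp6. Of these, mt-Nd6, the messenger encoded on the opposite strand to the other 12, had 556 to 1159 counts per library, and the remaining 5 had 3 to 256.

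The 5 messengers with the fewest counts are those that have a nearly identical nuclear copy over almost their whole length. On chromosome 1, between 24611535 and 24616197 (mm10), the annotation holds 7 pseudogenes that match mitochondrial genes in order. The coding sequence of mt-Co2, which encodes a core subunit of complex IV, matched Gm28661 without a mismatch over 681 bases. The first 90 bases of both are shown because they carry no difference by which a read could be told apart. They lie at M:7013-7102 on the plus strand and at 1:24615476-24615565 on the minus strand, each read 5′ to 3′ from GENCODE M21 transcripts.
mt-Co2: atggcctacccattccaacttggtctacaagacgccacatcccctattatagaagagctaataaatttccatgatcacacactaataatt
Gm28661: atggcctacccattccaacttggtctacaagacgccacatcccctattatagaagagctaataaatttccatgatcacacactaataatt
The copies of mt-Atp6 (Gm10925, 678 bases), mt-Co3 (Gm28437, 783 bases) and mt-Nd4l (Gm10222, 294 bases) were also 100% identical. The copy of mt-Nd3 (Gm28438, 345 bases) had 1 mismatch, shown in capitals in the first 90 bases of the pair, at M:9459-9548 on the plus strand and 1:24613030-24613119 on the minus strand.
mt-Nd3: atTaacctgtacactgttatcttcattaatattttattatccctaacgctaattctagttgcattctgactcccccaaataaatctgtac
Gm28438: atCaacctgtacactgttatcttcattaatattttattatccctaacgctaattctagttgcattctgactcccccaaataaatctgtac
The chromosome 1 copy of mt-Nd4 (Gm28439) was 100% identical over 876 of 1378 bases and left 502 bases of that messenger without a copy. The messenger mt-Co1, the catalytic subunit of complex IV, had a copy of 99.8% identity over 483 bases (Gm29216) and another on chromosome 2 (Gm13340) that was 97.6% identical over its whole length. The stretch of 90 bases with the most differences from Gm13340 holds 5, in capitals, at M:5772-5861 on the plus strand and 2:22589114-22589203 on the minus strand.
mt-Co1: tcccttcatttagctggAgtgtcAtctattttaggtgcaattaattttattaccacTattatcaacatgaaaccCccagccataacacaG
Gm13340: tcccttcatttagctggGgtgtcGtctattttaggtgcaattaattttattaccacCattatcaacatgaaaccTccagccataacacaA
Weaker copies were found for mt-Nd2 (Gm13339, 96.7% over 510 bases) and mt-Nd5 (Gm4076, 95.2% over 954 bases). No annotated transcript matched mt-Nd1, mt-Nd6, mt-Cytb or mt-Atp8 at 95% identity over at least 100 bases, although 233 bases of chromosome 1 lie between the copies of mt-Atp6 and mt-Co2, where mt-Atp8 lies in the mitochondrial order. Those 233 bases were not searched. The last 43 bases of mt-Atp8 are also the first of mt-Atp6 and so are found in Gm10925, a match shorter than 100 bases. How reads that match 2 places were counted is not given in the sources used here. The counts of mt-Co2, mt-Co3, mt-Atp6, mt-Nd3 and mt-Nd4l therefore cannot be read as the levels of those messengers, and those of mt-Nd4, mt-Co1 and mt-Atp8 may cover only a portion of each.

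**Figure D1:**
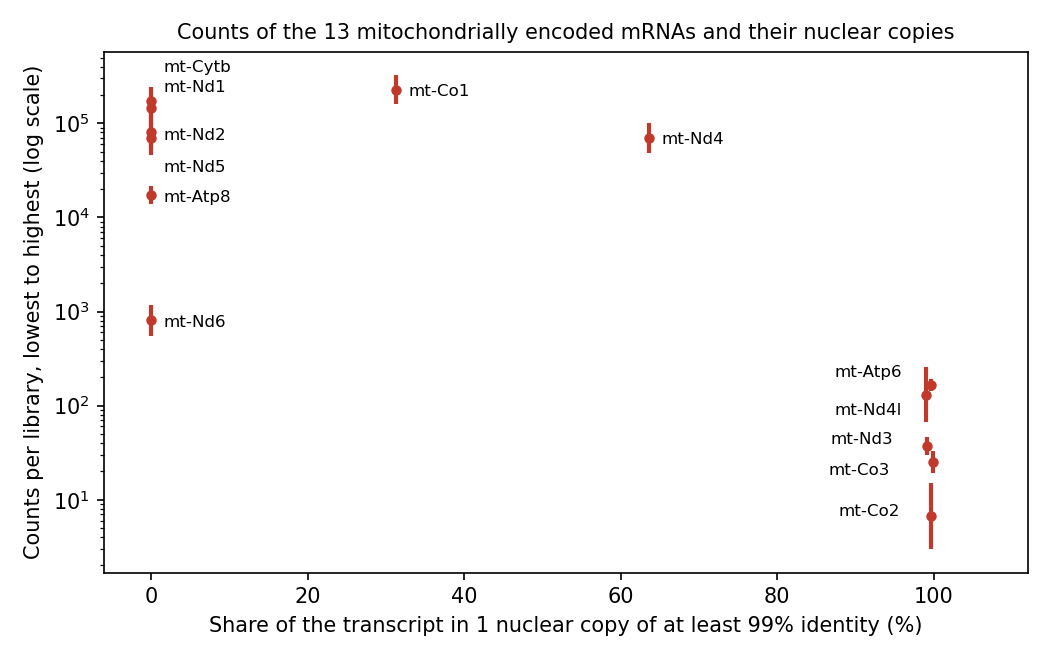
Counts per library of each mitochondrially encoded messenger (y axis, log scale, lines from the lowest to the highest of 6 libraries, point at the geometric mean of these) against the share of its transcript found in 1 nuclear copy of at least 99% identity (x axis, percent). The 5 messengers with at least 99% of their length in such a copy have at most 256 counts, while mt-Nd4 with 63.6% and mt-Co1 with 31.3% have at least 47936.

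Among the 7 deeply counted messengers of the mitochondrial chromosome, 6 stood at 71.9% to 76.3% of their wild-type level in knock-in, and mt-Atp8 stood at 88.4%. Of the 12 that could be tested, 5 fell and 0 rose, against 1.28% of all genes tested called lower and 0.629% called higher. All 5 were among the 7 with at least 10000 counts per library, whose median log2 fold change was -0.44 (-0.34 without the third knock-in library), and none of the 5 tested among the other 6 was called. In 6 of the 12 every knock-in library lay below every wild-type library, against 11.5% of all genes tested, and in none did every knock-in library lie above, against 12.3%. Without the second knock-in library 6 of the 12 were called, and without any one of the other 5 libraries 0 were, while the calls over all genes fell to between 39 and 89. With the mean of the brainstem markers as a covariate 0 of the 12 and 4 of all genes were called. The median of the 12 was -0.40 with all libraries and lay between -0.44 and -0.33 under these and the other settings. In bulk RNA, fewer cells of a type and less RNA per cell cannot be told apart.

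Complex I, which takes electrons from NADH, has 7 mitochondrially encoded subunits, all of its membrane arm. mt-Nd1 (ENSMUSG00000064341, M:2751-3707) stood at 3219, 3150 and 2917 CPM in knock-in, against 4090, 4186 and 3894 CPM in wild type. Its highest knock-in library lay below its lowest wild-type library, and it fell by 0.39 ± 0.07 on the log2 scale (SE, edgeR adjusted p = 0.021). mt-Nd2 was at 1845, 1911 and 1538 CPM in knock-in and at 2456, 2539 and 2365 CPM in wild type, again without overlap, and fell by 0.48 ± 0.09 on the log2 scale (adjusted p = 0.0254). This was the largest of the 5 called changes. mt-Nd4 was at 1495, 1688 and 1335 CPM in knock-in and at 2070, 2154 and 2007 CPM in wild type, and fell by 0.46 ± 0.09 on the log2 scale (adjusted p = 0.0303). mt-Nd5, with 1721, 1721 and 1284 CPM in knock-in against 2148, 2191 and 2141 CPM in wild type, did not overlap between the groups either, but its log2 fold change of -0.46 ± 0.11 missed the threshold (adjusted p = 0.0613). The third knock-in library was the lowest of all 6 for each of these 4 messengers, and for mt-Nd5 it lay apart from the other two knock-in libraries.

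The complex I messenger on the opposite strand, mt-Nd6, had 22.8, 19.4 and 15.5 CPM in knock-in and 23.7, 21.6 and 20.1 CPM in wild type. The groups overlapped and the log2 fold change was -0.18 ± 0.14 (adjusted p = 0.517). mt-Nd4l, at 1.81, 3.09 and 2.34 CPM in knock-in and 5.25, 4.01 and 2.84 CPM in wild type, also overlapped and was not called (log2 fold change -0.74 ± 0.26, adjusted p = 0.176). mt-Nd3, at 0.84 to 1.11 CPM in knock-in and 0.88 to 1.09 CPM in wild type, had a log2 fold change of 0.00 ± 0.24. mt-Nd6 shares 14 bases with mt-Nd5 on the other strand, and the strand setting of the counting is not given in the sources used here.

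mt-Cytb (ENSMUSG00000064370, M:14145-15288), the cytochrome b of complex III and its only mitochondrially encoded subunit, was at 3705, 4092 and 3308 CPM in knock-in and at 5039, 5199 and 4790 CPM in wild type. It fell by 0.44 ± 0.08 on the log2 scale (adjusted p = 0.0282), with no overlap. mt-Co1 (ENSMUSG00000064351, M:5328-6872), which binds the haem and copper groups where oxygen is reduced, was at 5182, 5337 and 4462 CPM in knock-in and at 6657, 6888 and 6436 CPM in wild type, and fell by 0.42 ± 0.08 on the log2 scale (adjusted p = 0.0252). Both had their lowest value in the third knock-in library, as the complex I messengers did. Of the other complex IV core genes, mt-Co3 had 0.48 to 0.89 CPM in knock-in and 0.64 to 0.72 CPM in wild type (log2 fold change 0.03 ± 0.30), and mt-Co2 was below the filter.

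Complex V has 2 mitochondrially encoded subunits of its membrane domain, read from overlapping frames of 1 messenger. mt-Atp8 was at 459.9, 430.8 and 382.2 CPM in knock-in and at 424.4, 512.6 and 503.4 CPM in wild type. The groups overlapped, since the first wild-type library lay below 2 knock-in libraries, and the log2 fold change of -0.18 ± 0.10 was the smallest in size of the 7 (adjusted p = 0.371). The 43 bases that mt-Atp8 shares with mt-Atp6, at M:7927-7969 on the plus strand, are shown because a read within them belongs to both genes.
Overlap: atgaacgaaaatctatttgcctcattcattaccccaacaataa
mt-Atp6 itself had only 3.96 to 4.82 CPM in knock-in and 3.52 to 4.03 CPM in wild type (log2 fold change 0.24 ± 0.15, adjusted p = 0.442).

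Per kilobase of exon, averaged over the 6 libraries, mt-Cytb (3810 CPM per kb), mt-Co1 (3770) and mt-Nd1 (3740) stood highest of all members and close to each other. They were followed by mt-Atp8 (2220), mt-Nd2 (2030), mt-Nd4 (1300) and mt-Nd5 (1020). These values divide by the whole exon length. Of that length, 63.6% in mt-Nd4 and 31.3% in mt-Co1 lie in 1 nuclear copy of at least 99% identity. Their values may therefore be too low, and the order is uncertain. mt-Co2, mt-Co3, mt-Atp6, mt-Nd3 and mt-Nd4l cannot be placed in it. mt-Nd1 near the start of the gene order and mt-Cytb at its end fell by similar amounts.

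**Figure D2:**
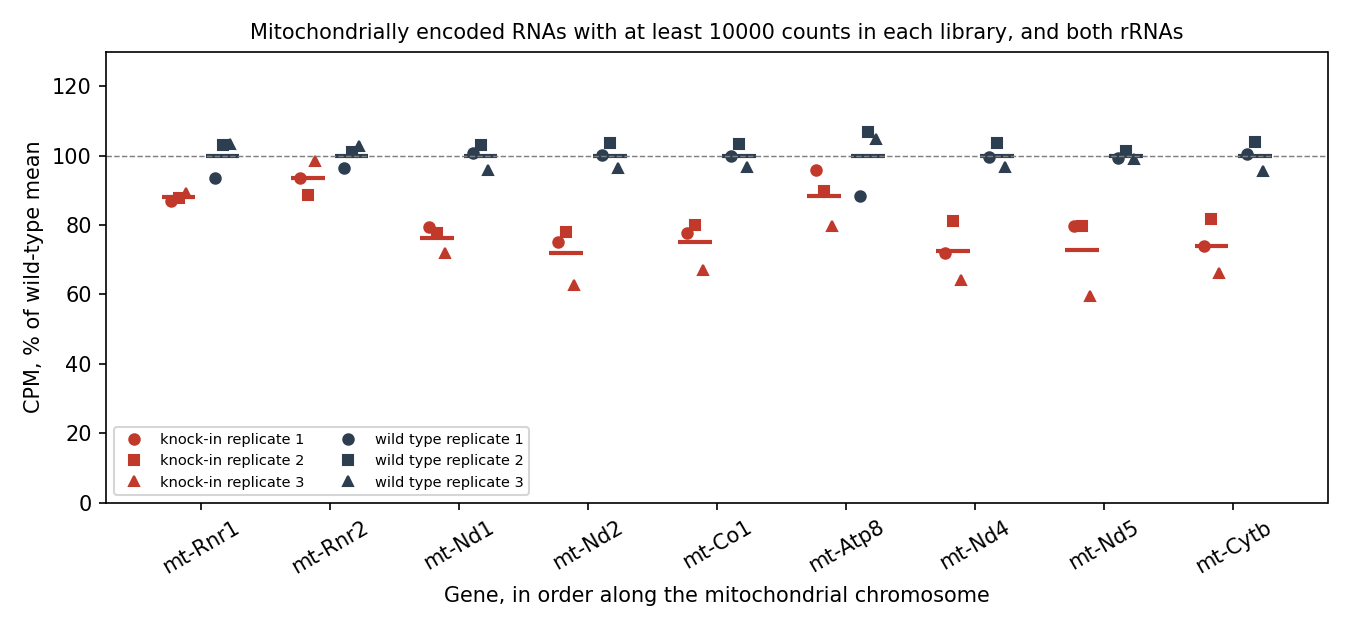
CPM as a percentage of the wild-type mean (y axis) in each library for the 7 well-counted mitochondrially encoded messengers and both ribosomal RNAs, in chromosome order (x axis), with knock-in in red left of wild type in dark blue; points are libraries and lines are group means. Knock-in means lie between 71.9% (mt-Nd2) and 76.3% (mt-Nd1) for 6 messengers and at 88.4% for mt-Atp8.

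Neither ribosomal RNA of the same chromosome was called. mt-Rnr1 was at 1508, 1523 and 1545 CPM in knock-in and at 1622, 1788 and 1790 CPM in wild type, without overlap but not called (log2 fold change -0.18 ± 0.07, adjusted p = 0.195). mt-Rnr2 was at 2824, 2671 and 2968 CPM in knock-in and at 2906, 3044 and 3098 CPM in wild type, with overlap (adjusted p = 0.484). The ratio of messenger counts to ribosomal RNA counts on the chromosome was 4.08, 4.38 and 3.38 in knock-in and 5.06, 4.91 and 4.53 in wild type, so each knock-in ratio was below each wild-type ratio. This ratio comes from a polyadenylated selection, and how completely each RNA was captured was not tested. Of 22 tRNA genes 9 had enough counts to test; edgeR called 0, and 2 had an unadjusted p under 0.05. Those with the smallest adjusted p, chosen after their values were seen, were mt-Tm and mt-Tw, which flank mt-Nd2 (M:3914-4951). mt-Tm ends at M:3913, and mt-Tw starts at M:4950, within mt-Nd2. Whether their counts come from the tRNAs or from precursors and reads that reach into mt-Nd2 was not tested. mt-Tm had 4.33, 5.27 and 4.12 CPM in knock-in against 6.86, 7.40 and 7.05 CPM in wild type, without overlap (log2 fold change -0.63 ± 0.14, adjusted p = 0.0536), and mt-Tw did not overlap either (-0.55 ± 0.15, adjusted p = 0.0881).

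The 13 mitochondrial genes together took 1.83%, 1.84% and 1.58% of all counts in knock-in and 2.28%, 2.25% and 2.17% in wild type. The difference in means was -0.483 percentage points, and the groups did not overlap. Several lists of cell type markers were lower in the same libraries. The mean log2 CPM of Purkinje cell markers was 9.35 to 9.60 in knock-in and 9.90 to 10.02 in wild type. That of Bergmann glia and astrocyte markers was 7.97 to 8.19 in knock-in and 8.42 to 8.45 in wild type. Interneuron markers were at 7.81 to 7.92 in knock-in and 8.03 to 8.19 in wild type. Endothelial markers (5.39 to 5.51 against 5.56 to 5.63) and blood markers (3.27 to 3.68 against 3.72 to 3.79) did not overlap either. Granule neuron, oligodendrocyte, microglial, choroid plexus and brainstem markers overlapped between the groups. The part of any of these in the lower mitochondrial share was not tested.

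No nuclear gene of oxidative phosphorylation was called. Of 95 nuclear members 94 were tested and 1, Cox8c, had no count in any library. The edgeR test at the same threshold called 0 of the 94, beside 1.9% of all genes tested, and 19 had an unadjusted p under 0.05, beside 18.1% of all genes tested. DESeq2 called 2 and limma-voom 0. The median log2 fold change was 0.09, with quartiles of -0.01 and 0.19, against 0.01 for all genes tested; 68 lay above 0 and 26 below. In 16 of them every knock-in library lay above every wild-type library and in 4 below, beside 12.3% and 11.5% of all genes tested. Of the named nuclear genes, Uqcrb and Atp5h have at least 50% of their transcript in copies of 95% identity or more, as 8 of the 95 nuclear members do, so their counts are less certain.

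**Figure D3:**
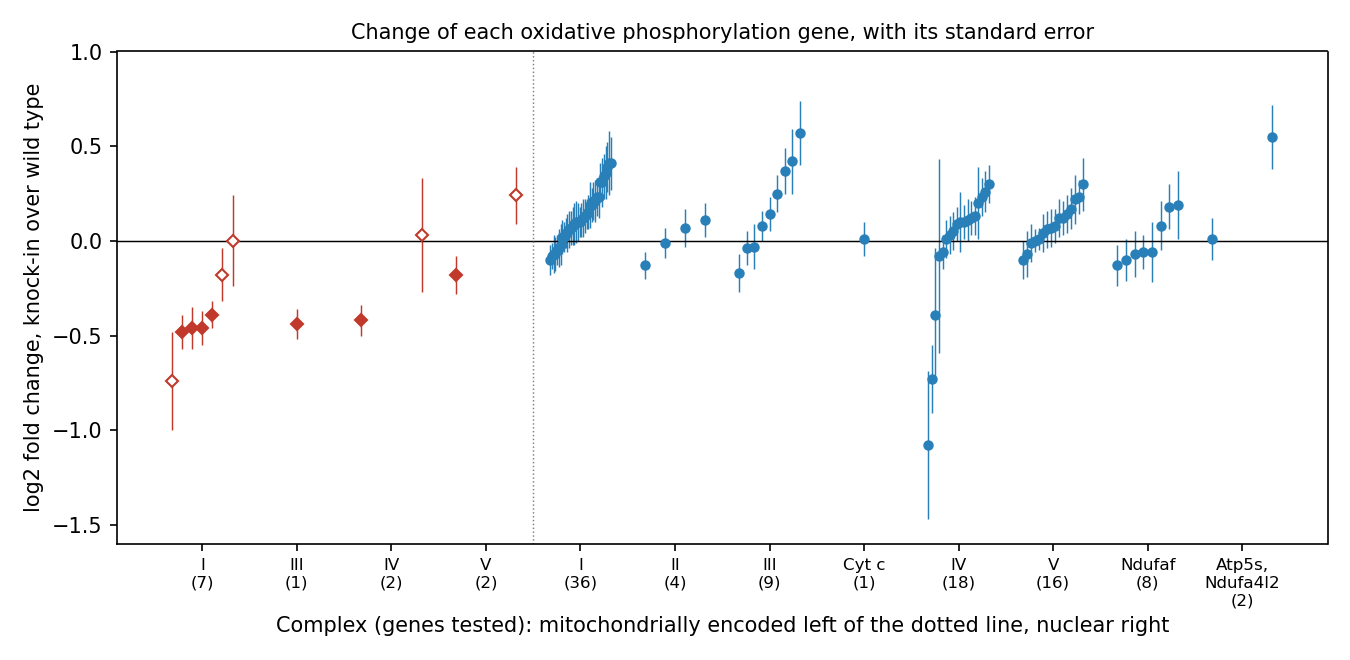
Log2 fold change of knock-in over wild type with its standard error (y axis) for each tested gene, grouped by complex (x axis), with mitochondrially encoded genes as red diamonds left of the dotted line (open where a library had under 10000 counts) and nuclear genes as blue circles right of it. The filled diamonds lie between -0.48 and -0.18 and most nuclear genes close to 0.

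The nuclear members differed most in the third knock-in library. Relative to the mean of the 6 libraries, 90 of 94 nuclear members were above it in that library, with a median of 0.22 on the log2 scale. In the other two knock-in libraries 31 and 25 were above and the medians were -0.02 and -0.06. In wild type 44, 9 and 53 were above, with medians of -0.02, -0.11 and 0.01. Without the third knock-in library the median log2 fold change of the nuclear members was 0.00.

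Complex I nuclear genes had a median log2 fold change of 0.11 over 36 genes, 0.07 over the 7 that encode its catalytic core and 0.11 over the 29 that encode accessory subunits. Without the third knock-in library the median was 0.02 over the 36, -0.01 over the core and 0.03 over the accessory genes. Of the 4 named for their extremes, Ndufb7, an accessory subunit, had 75.3, 79.5 and 97.6 CPM in knock-in against 49.7, 69.2 and 70.5 CPM in wild type, without overlap (log2 fold change 0.41 ± 0.14, adjusted p = 0.172). Ndufs7, a core iron-sulfur subunit, had a similar log2 fold change of 0.41 ± 0.17 with overlap. The low ends were Ndufs1, the core subunit with the most iron-sulfur clusters, at -0.10 ± 0.08, and Ndufa9, an accessory subunit, at -0.08 ± 0.07. Ndufb9, the most abundant per kilobase at 185 CPM per kb, had a log2 fold change of 0.10 ± 0.10. The 8 assembly factors named Ndufaf, which help to build complex I and are no part of it, had a median of -0.06 (-0.11 without the third knock-in library), with Ndufaf7 (-0.13) and Ndufaf1 (-0.10) lowest and Ndufaf3 (0.18) and Ndufaf8 (0.19) highest. The groups overlapped for all 8.

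Complex II is wholly nuclear and is also an enzyme of the citric acid cycle. The median of its 4 genes was 0.03, and -0.04 without the third knock-in library. Sdha, its flavoprotein, was at 626.1, 625.9 and 613.7 CPM in knock-in and at 672.3, 699.6 and 670.9 CPM in wild type. The groups did not overlap, and its log2 fold change of -0.13 ± 0.07 was not called (adjusted p = 0.332). Sdhb, the iron-sulfur subunit (0.11), and the membrane anchors Sdhc (-0.01) and Sdhd (0.07) overlapped.

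In complex III the median was 0.14 over 9 genes, and 0.05 without the third knock-in library. The largest positive log2 fold change of all nuclear members was that of Uqcrq, a small subunit of this complex, with 82.5, 101.1 and 131.4 CPM in knock-in and 55.7, 76.0 and 80.5 CPM in wild type. Its groups did not overlap, but the lowest knock-in library lay barely above the highest wild-type library, and the log2 fold change was 0.57 ± 0.17 (adjusted p = 0.128), or 0.38 ± 0.16 without the third knock-in library. Uqcr11 had 0.42 ± 0.17 with overlap, Uqcrb -0.17 ± 0.10, and Uqcrc2 -0.04 ± 0.09. Uqcrh, the most abundant per kilobase at 209 CPM per kb, had -0.03 ± 0.12. Cyc1, the cytochrome c1 that hands electrons on, was at 0.14 ± 0.09, and Cycs, the soluble carrier cytochrome c, had 63.3, 65.5 and 74.6 CPM in knock-in against 71.8, 63.4 and 66.7 CPM in wild type (0.01 ± 0.09).

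Complex IV held the 3 nuclear genes with the most negative log2 fold changes, Cox6a2, Cox6b2 and Cox7b2, all of them isoforms known from other tissues and at low levels here; Cox7b2 was named after its values were seen (-0.39 ± 0.35). The median over the 18 tested genes of the complex was 0.09, and over the 6 tested tissue isoforms it was -0.24. Without the third knock-in library these medians were 0.01 and -0.78. Cox6b2, the isoform known from testis (ENSMUSG00000051811, 7:4751792-4753094), had 157, 149 and 224 counts in knock-in and 400, 310 and 308 counts in wild type. These correspond to 4.25, 3.74 and 6.24 CPM in knock-in and 8.20, 7.40 and 7.96 CPM in wild type, without overlap, and to a log2 fold change of -0.73 ± 0.18 (adjusted p = 0.0818). Its highest knock-in value was in the third library, without which Cox6b2 passed the threshold (-0.97 ± 0.15, adjusted p = 0.0374). Cox6a2, the heart and muscle isoform, had 0.27, 0.98 and 0.53 CPM in knock-in against 1.21, 1.07 and 1.52 CPM in wild type, also without overlap (-1.08 ± 0.39, adjusted p = 0.185). Their widespread counterparts Cox6b1 (0.13 ± 0.10) and Cox6a1 (0.26 ± 0.11) were not called, and per kilobase they stood at 331 CPM each, against 5.68 for Cox6b2 and 1.37 for Cox6a2. The other isoform sets showed the same order of levels: Cox4i1 (399 CPM per kb) over Cox4i2 (5.12), Cox7a2 (222) and Cox7a2l (105) over Cox7a1 (11.8), and Cox8a (520) over Cox8b (2.35). Cox4i1 had 657.4, 607.6 and 782.6 CPM in knock-in and 520.7, 544.5 and 599.8 CPM in wild type, without overlap and not called (0.30 ± 0.10, adjusted p = 0.17; 0.19 ± 0.09 without the third knock-in library). Cox5a was at -0.06 and Ndufa4, a complex IV subunit despite its name, at 0.01. Its paralogue Ndufa4l2, at 3.55, 3.26 and 3.54 CPM in knock-in and 2.19, 2.27 and 2.64 CPM in wild type, did not overlap and was not called (0.55 ± 0.17, adjusted p = 0.128). Ndufa4l2 and Atp5s (0.01 ± 0.11) are named like subunits and entered by the symbol rule.

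In complex V the median was 0.08 over 16 genes, and -0.01 without the third knock-in library. Atp5a1, the alpha subunit of its catalytic head, was at 0.00 ± 0.06. Atp5b, the beta subunit and the marker given for the nuclear set, was at 2051, 2059 and 2214 CPM in knock-in and at 2107, 2067 and 2125 CPM in wild type (0.01 ± 0.06). It was the nuclear member with the highest CPM. Atp5d, of the central stalk, was at 0.30 ± 0.14 with overlap, Atp5g1, one of 3 genes for the same membrane ring subunit, at 0.23 ± 0.09 without overlap (adjusted p = 0.211), and its paralogues Atp5g2 and Atp5g3 at 0.17 and 0.08. At the low end were Atp5h (-0.10) and Atp5mpl (-0.07).

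The level of the 2 genomes relative to each other differed between the groups in each library. The counts on the 13 mitochondrial genes were 1.08, 1.16 and 0.819 times those on the 95 nuclear genes in knock-in and 1.43, 1.52 and 1.34 times in wild type. As mean log2 CPM, the 7 well-counted mitochondrial messengers exceeded the nuclear members by 4.578, 4.631 and 4.07 in knock-in and by 4.902, 5.019 and 4.81 in wild type, a difference of -0.484 between the group means, with no overlap. Over all 12 tested mitochondrial genes, which include 4 whose counts cannot be read as levels, the excess was 0.656, 0.649 and 0.141 in knock-in and 0.884, 0.945 and 0.735 in wild type. That difference was -0.373, or -0.202 without the third knock-in library, and the groups did not overlap either way.

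**Figure D4:**
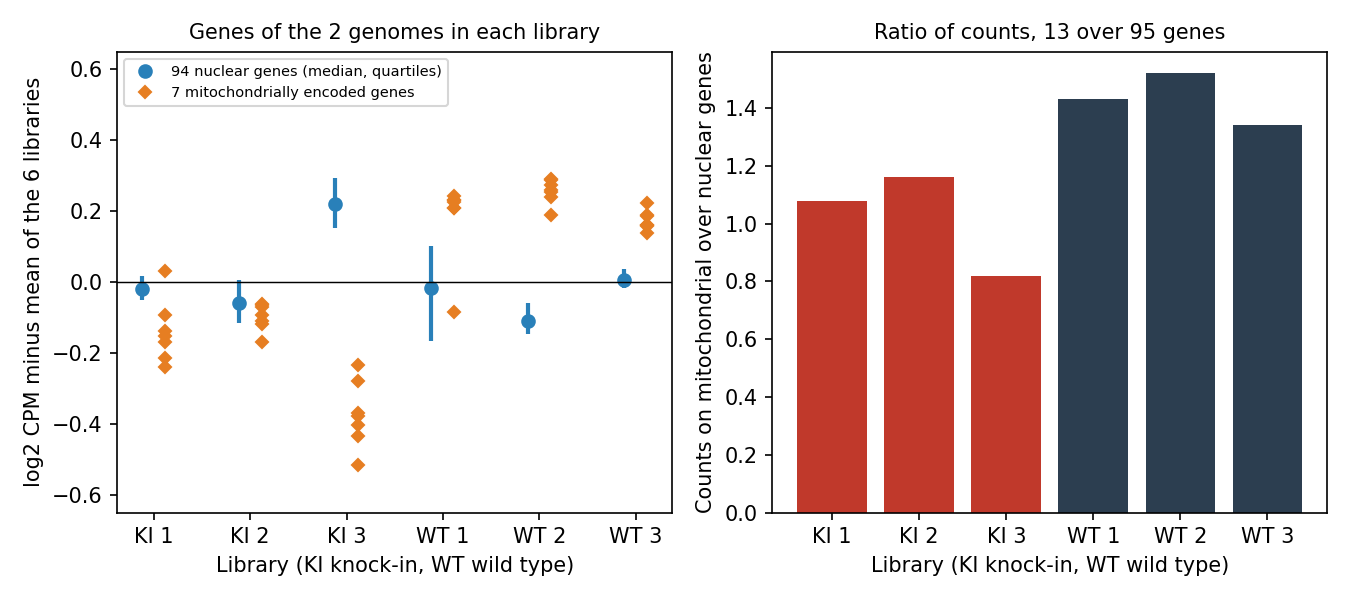
Left, log2 CPM relative to the mean of the 6 libraries (y axis) for the 94 nuclear genes (blue, median and quartiles) and for the 7 well-counted mitochondrially encoded genes (orange diamonds) in each library (x axis). Right, the ratio of counts on the 13 mitochondrial to counts on the 95 nuclear genes, with knock-in bars in red left of wild-type bars in dark blue. The third knock-in library is highest for nuclear genes and lowest for mitochondrial genes, with a ratio of 0.819, and every wild-type ratio lies at or above 1.34.

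The libraries differed in how counts related to base composition. Across all tested genes, the Spearman rho between GC content and the deviation of log2 CPM from the mean of the 6 libraries was 0.00, 0.23 and 0.31 in knock-in and -0.54, 0.06 and 0.03 in wild type. The third knock-in library was highest in both this rho and the nuclear median. The first wild-type library, lowest in rho, had a nuclear median of -0.02. The second wild-type library, with a rho of 0.06, had the lowest nuclear median. With gene length in place of GC content, rho was -0.08, 0.14 and -0.43 in knock-in and 0.09, 0.28 and -0.01 in wild type. That rho was lowest in the third knock-in library and highest in the second wild-type library. The part of either relation in the nuclear medians was not tested. Across the 94 nuclear members, which are not independent replicates, GC content and log2 fold change were related with a Spearman rho of 0.49, beside 0.32 across 16656 genes. The members at or below the median GC content of 50.1% had a median log2 fold change of 0.05 and those above it 0.14. With offsets for GC content and length in each library the rho over the members was 0.04 and their median 0.04. The mitochondrial members, of 31.9% to 41.1% GC, were all in the lower range. With the same offsets their median log2 fold change was -0.43, and only mt-Nd1 was called (edgeR adjusted p = 0.046). mt-Nd2 (adjusted p = 0.0513), mt-Nd4 (0.0624), mt-Co1 (0.0681) and mt-Cytb (0.0787) missed the threshold. Over all genes, the calls rose from 318 to 644 with these offsets.

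**Figure D5:**
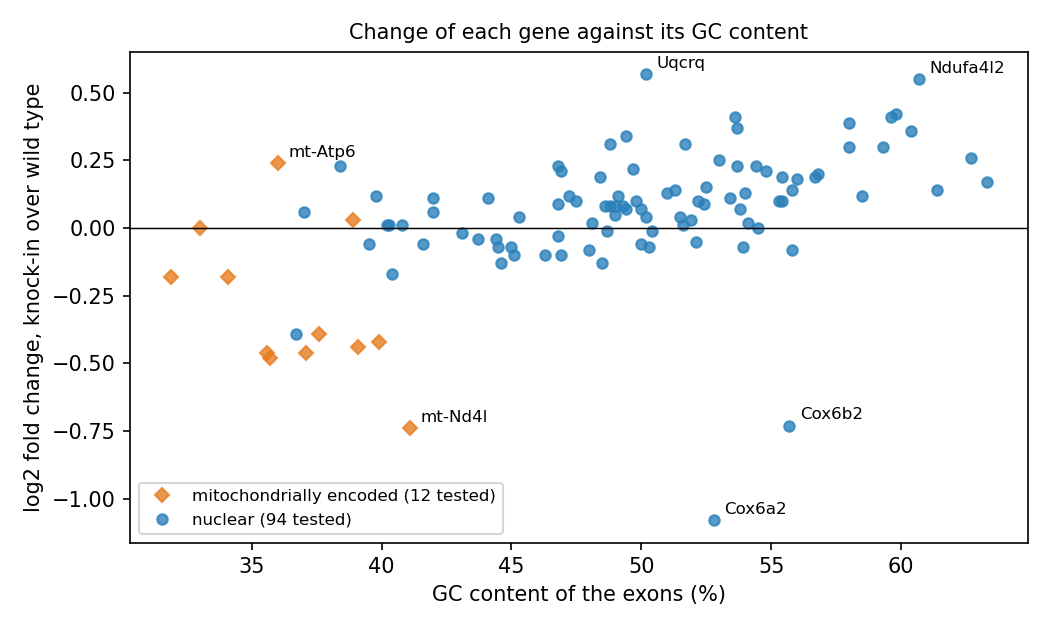
Log2 fold change of knock-in over wild type (y axis) against GC content in percent (x axis), with mitochondrially encoded genes as orange diamonds and nuclear genes as blue circles. GC content is that of the longest annotated transcript of each gene, although the axis names the exons. The nuclear genes show the relation of rho 0.49, and Cox6b2 and Cox6a2 lie far below it.

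Promoters were compared as a property that the symbol rule did not use. RefSeq windows of 250 bases before to 50 after the start (GRCm38.p6) were matched for 77 of the 95 nuclear members. The NRF1 motif, searched as GCGCATGCG on both strands, was in a window of 14.3% of them, against 1.95% of 27025 genes with a window. The ETS motif CCGGAAG, bound by GABP among others, was in 23.4% against 9.93%, the YY1 motif AAGATGGCG in 10.4% against 1.64%, and the ERR motif TCAAGGTCA in 2.6% against 0.466%. For NRF1, ETS, YY1 and ERR these were 11, 18, 8 and 2 of the 77 members, so the ERR share rests on 2 genes. The 27025 genes were all those with a window, whether or not they were expressed here. Windows of genes with like expression or base composition were not compared, so the excess cannot be called particular to these members. NRF1, GABP, YY1 and ERR are factors known for their part in the expression of respiratory chain genes. The 3 windows below carry such a match, in capitals, in genes named above: Cycs (6:50566520-50566819, minus strand) the NRF1 motif, Uqcr11 (10:80406772-80407071, minus strand) ETS and NRF1 motifs, and Ndufs7 (10:80249199-80249498, plus strand) the YY1 motif.
Cycs: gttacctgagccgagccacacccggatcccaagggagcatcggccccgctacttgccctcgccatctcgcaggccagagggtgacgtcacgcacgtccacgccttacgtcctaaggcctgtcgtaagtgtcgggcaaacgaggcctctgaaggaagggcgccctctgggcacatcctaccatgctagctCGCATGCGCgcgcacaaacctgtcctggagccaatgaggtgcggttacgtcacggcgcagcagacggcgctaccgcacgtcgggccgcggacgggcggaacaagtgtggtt
Uqcr11: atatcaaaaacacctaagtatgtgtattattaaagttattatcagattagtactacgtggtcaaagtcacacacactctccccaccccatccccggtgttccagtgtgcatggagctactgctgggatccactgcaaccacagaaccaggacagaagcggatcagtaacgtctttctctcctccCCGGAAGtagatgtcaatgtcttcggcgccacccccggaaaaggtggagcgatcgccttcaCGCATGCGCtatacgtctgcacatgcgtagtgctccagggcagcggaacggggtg
Ndufs7: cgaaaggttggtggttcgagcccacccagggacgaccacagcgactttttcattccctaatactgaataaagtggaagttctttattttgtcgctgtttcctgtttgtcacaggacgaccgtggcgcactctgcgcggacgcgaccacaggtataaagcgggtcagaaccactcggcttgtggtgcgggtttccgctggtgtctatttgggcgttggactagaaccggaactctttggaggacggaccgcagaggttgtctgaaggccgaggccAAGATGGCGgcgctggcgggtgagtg
A match describes the letters in the window and not the binding of a factor. The windows run 50 bases past the start, so a match can lie in transcribed sequence, as the YY1 match of Ndufs7 does. The YY1 letters contain ATG, and whether such matches fall on start codons was not tested.

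Genes that serve the same organelle outside the symbol rule were taken from 7 lists. The 7 lists hold the machinery of mitochondrial transcription and replication, RNA processing, regulators of biogenesis, the citric acid cycle, other assembly factors, membrane and import genes, and dynamics and quality control. Together 142 of their genes were tested; edgeR called 0, DESeq2 2 and limma-voom 0, beside 1.9% of all genes called by edgeR. Between 0 and 6 genes of each list, of 15 to 38 tested, had an unadjusted p under 0.05, beside 18.1% of all genes, and the list medians lay between -0.06 and 0.03. The smallest adjusted p was that of Timm44, part of the import motor, with 44.7, 47.8 and 49.8 CPM in knock-in and 39.7, 36.6 and 39.2 CPM in wild type, without overlap (0.30 ± 0.08, adjusted p = 0.0955). Most abundant in their lists were Polg, the mitochondrial DNA polymerase (0.12 ± 0.08), Grsf1, an RNA-binding protein of mitochondrial RNA granules (-0.10 ± 0.08), Esrrg, an ERR-family receptor (-0.17 ± 0.09), Uqcc1, an assembly factor of complex III (-0.03 ± 0.10), Slc25a4, an ADP/ATP carrier (0.20 ± 0.08), and Pink1, a kinase of mitochondrial quality control (0.20 ± 0.09). Slc25a4 and Pink1 did not overlap between groups, with all knock-in libraries higher. Among the genes with a direct part in making or keeping mitochondrial messengers, 3 were chosen after their values were seen. Tfam, which packages and helps to transcribe the chromosome, was at 50.3, 48.9 and 46.4 CPM in knock-in and 56.2, 52.5 and 51.6 CPM in wild type (-0.14 ± 0.08, no overlap). The others were Lrpprc, which stabilises the messengers (-0.14 ± 0.08, no overlap), and Polrmt, the RNA polymerase (0.38 ± 0.14, no overlap). None of these 3 was called, at adjusted p of 0.384, 0.381 and 0.184. Of the 18 tested genes of transcription and replication, 1 was lower and 2 were higher without overlap. The higher gene beside Polrmt was Rnaseh1 (0.34 ± 0.11, adjusted p = 0.165). Of the 19 of RNA processing, 4 were lower and 2 higher. The lower genes beside Lrpprc were Mtpap (-0.12), Fastkd3 (-0.17) and Ptcd2 (-0.09). Those higher were Tbrg4 (0.15) and Fastk (0.37 ± 0.11, adjusted p = 0.107), which had the smallest adjusted p of these 2 lists. Over all genes tested, 11.5% were lower and 12.3% higher without overlap. The remaining tested genes of these 2 lists overlapped, among them Tfb2m (-0.05), Tefm (0.04) and Slirp (-0.07).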

How the data were processed

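The authors deposited unnormalized counts for each Ensembl identifier. The submitters' processing notes name HTSeq 0.6.1, TopHat2 2.0.14, Bowtie2 2.1.0, bcl2fastq 2.17.1.14 and the build mm10; the annotation release, the strand setting and the treatment of reads with several matches were not given in the sources used here. Libraries were stranded and made from polyadenylated RNA, per the labels. Members, complexes and pathway lists were chosen with earlier results of these data known. Symbols came from GENCODE M21 and matched 48349 of 48709 identifiers; it has a further identifier named Atp5o that is not in the table.

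The groups, of 3 samples each, were compared in R 4.3.3 with edgeR 4.0.16 (filterByExpr with minimum count 10 and minimum total 15, TMM, quasi-likelihood F test on genotype alone, Benjamini-Hochberg adjustment over all genes tested, calls at 0.05). Standard errors are the size of the log2 fold change over the square root of F. DESeq2 1.42.0, limma 3.58.1 (voom) and offsets fitted with mgcv 1.9.3 were alternatives. Named genes were all mitochondrially encoded members, the 2 highest and 2 lowest log2 fold changes in each complex and in the Ndufaf group at a mean CPM of at least 1, complex II, Cyc1, Cycs, the most abundant nuclear member of each complex, the isoform sets, and the most abundant member of each pathway list; others were chosen after their values were seen, and 1 gene that the rule took is not reported here. Transcripts were searched for copies with BLAST 2.17.0 (at least 95% identity over 100 bases).

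The labels do not state that samples came from separate animals, so the p-values refer to the spread between these samples, part of which may be technical. Libraries of 1 group differed by more than sampling noise (chi-square per degree of freedom of 14.01 to 30.21). The procedure was tested on simulated data with known changes. It recovered 64% of 1.5-fold and 90% of 2-fold changes, and 7% of its calls were false at each size. The 5 called mitochondrial changes were smaller than either size, so how often such changes are found is not known from it. The limit of 10000 counts per library that sets the 7 well-counted mitochondrial genes apart was chosen after the counts were seen.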

Additional observations from a re-analysis of the deposited data

How the results depend on the processing

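Relative to 318 calls over all genes, there were 513 with library size scaling, 1303 with no filter, 908 with DESeq2, 644 with GC and length offsets, 4 with the brainstem marker covariate and 721 at an adjusted p of 0.1, and between 39 and 858 with 1 library left out. Mitochondrially encoded members, 5 called, had 1 with GC and length offsets, 0 with the brainstem covariate, and 0 to 6 with 1 library left out. Nuclear members, 0 called, had 11 with no filter (2 lower, 9 higher), 2 with DESeq2, 1 with GC and length offsets, 1 at an adjusted p of 0.1 and 0 to 1 with 1 library left out. Pathway genes, 0 called, had 2 with library size scaling, 5 with no filter, 2 with DESeq2 and 1 at an adjusted p of 0.1. The cause of these changes was not tested.

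Whether equal replicate numbers mark pairs was not settled. Deviations of same-numbered libraries had correlations of 0.00, 0.17 and 0.32 for replicates 1, 2 and 3. For replicates 2 and 3 these were the highest with any library of the other group. Knock-in replicate 1 correlated best with wild-type replicate 3 (0.05), and wild-type replicate 1 with knock-in replicate 2 (0.1). With the replicate block the calls were 2126 over all genes, 6 mitochondrially encoded, 17 nuclear (16 higher) and 16 pathway genes (15 higher); with GC and length offsets as well they were 1354, 9 nuclear (8 higher) and 4 pathway genes.

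The medians of the mitochondrially encoded members (-0.44 to -0.33) and of the nuclear members (0.00 to 0.17) moved by less than the spread between libraries under all settings run. mt-Nd1 was called in 11 of 17 alternative fits, mt-Nd2, mt-Co1, mt-Nd4 and mt-Cytb in 10 each and mt-Nd5 in 5, always with the same sign. Of the nuclear genes, Cox6b2 was called in 6 and Uqcrq in 4. Of 60 named genes tested, 37 kept their sign in each alternative run, and the other 23 were called neither with all libraries nor where their sign changed. Counts of at most 256 per library on 5 mitochondrially encoded genes limit what can be said of them. For the difference between the genomes in mean log2 CPM, the offsets (-0.34), the restriction to 7 messengers (-0.484) and the removal of 1 library (-0.46 to -0.202) were chosen after seeing the data, as was the removal of 1 library for the share of counts.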
